A study of Mus musculus with 6 samples.

Results

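The microRNA (miRNA) genes linked to endoderm, namely mir-192, mir-194-1, mir-194-2, mir-215, mir-122 and mir-375, were selected by name, 6 of the 898 miRNA genes in a mouse small-RNA sequencing table. They were followed from pluripotent embryonic stem cells (ESCs) into the neuronal cells (NCs) that retinoic acid (RA) gave in the study. All libraries came from E14Tg2a, a single feeder-independent ESC line, at passages 37 to 40. The ESC group (3 samples) was kept in leukemia inhibitory factor (LIF), the cytokine that maintains pluripotency, and the NC group (3 samples) was cultured without LIF and with 1 µM RA for 48 hours. The study states separate processing of replicate sets for its RNA-seq and does not say so for small RNA. No further genotype or treatment was labelled.

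Endoderm gives rise to the gut, liver and pancreas, and several miRNAs are concentrated in these organs. miR-192 and miR-194 are abundant in intestine and liver, where they are transcribed together from a cluster under the control of hepatocyte nuclear factors. miR-215 lies beside a further miR-194 copy, and miR-192 and miR-215 are also known as p53-responsive inhibitors of the cell cycle. miR-122 is the dominant miRNA of hepatocytes, and miR-375 is the miRNA of pancreatic islets that restrains insulin secretion. A miRNA recognizes its targets mainly through bases 2 to 8 of the mature strand, the seed, so miRNAs with the same seed can act on overlapping transcripts.

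The mature sequences are shown because 4 of the 6 genes yield only 2 leading seeds. How far their reads can be told apart depends on the whole mature strand, not on the seed. Sequences are from RefSeq (GRCm38.p6), written 5′ to 3′ with the seed in capitals:
miR-192-5p: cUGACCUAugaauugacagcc
miR-215-5p: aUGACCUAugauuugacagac
miR-194-5p: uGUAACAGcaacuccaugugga
miR-194-1-3p: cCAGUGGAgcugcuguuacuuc
miR-194-2-3p: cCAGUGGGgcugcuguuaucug

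miR-192-5p and miR-215-5p carried the same seed and matched at 18 of 21 positions. Counted from the 5′ end, the substitutions from miR-192-5p to miR-215-5p were C1A, A12U and C20A. Among 1679 mature miRNA names in RefSeq, no other shared this seed. miR-194-5p is made from both mir-194 genes, and its seed belonged to those 2 genes alone. The 3′ strands of the copies differed at 4 of 22 positions (A8G, C19U, U20C and C22G from miR-194-1-3p to miR-194-2-3p).

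The 2 mir-194 hairpins are shown because their common run, in capitals, is the whole 22-base miR-194-5p, so a read of that strand fits both genes:
mir-194-1: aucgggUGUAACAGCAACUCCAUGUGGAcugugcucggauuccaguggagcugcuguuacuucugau
mir-194-2: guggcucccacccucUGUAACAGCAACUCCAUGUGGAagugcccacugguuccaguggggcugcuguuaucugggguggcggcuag

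The mir-192, mir-194 and mir-215 genes lie in 2 pairs, each with its mir-194 copy first, on the plus strand of GRCm38, the build called mm10 in the submitters' processing notes. mir-194-2 (chromosome 19, 6264643 to 6264728) and mir-192 (6264844 to 6264932) are separated by 115 bases, and no other annotated gene overlaps them in GENCODE M21. mir-194-1 (chromosome 1, 185313319 to 185313385) and mir-215 (185313581 to 185313692) are separated by 195 bases. Both lie in an intron of Iars2, a mitochondrial isoleucyl-tRNA synthetase gene on the opposite strand, and within the antisense transcript 2010103J01Rik, where mir-194-1 is intronic and mir-215 exonic. mir-375 (chromosome 1, 74900658 to 74900721, minus strand) lies between annotated genes.

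The deposited values were means of normalized counts for each group, that is, reads divided by a size factor per library. Reads of single libraries were recovered from these means by arithmetic for all 6 members, and the letters A, B and C were given to the libraries of a group from the largest size factor to the smallest (1.62, 0.937 and 0.547 in ESCs, 2.31, 0.977 and 0.585 in NCs). The recovered reads summed to between 99810 and 371396 per library, without the most abundant miRNAs, which could not be resolved. In both groups library C, the shallowest, stood apart. For the 233 miRNAs whose mean reached 20 in both groups, its log2 deviation from the mean of A and B had an SD of 1.32 (ESCs) and 1.22 (NCs). Between A and B the SD was 0.305 and 0.234. Since the comparison is of bulk RNA, fewer cells of a type and less miRNA per cell cannot be told apart.

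mir-192 was by far the most abundant member on the scale of normalized counts, and it was not called as changed in NCs. The ESC libraries held 4711, 2405 and 508 reads, or 2904, 2566 and 928 normalized counts. The NC libraries held 5466, 2258 and 346 reads, or 2370, 2312 and 592 normalized counts. Within each group the deeper libraries lay close together and library C lay far below them, so the groups overlapped. The mean was 2133 ± 1057 (SD, n = 3) in ESCs and 1758 ± 1010 (SD, n = 3) in NCs. By the limma-voom fit across all 317 testable miRNAs, the log2 fold change (NC over ESC) was -0.36 ± 0.68 (SE), with a 95% interval from -1.99 to 1.26 (adjusted p-value 0.810). On the fold scale this interval ran from 0.253 to 2.39, so the libraries did not bound the change closely. Without NC library C, with the low ESC library C kept, the log2 fold change was 0.29 (adjusted p-value 0.753 in limma-voom). It was from -0.90 to -0.07 when any other library was left out, and -0.23 without both C libraries.

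Taken within libraries A and B and within library C, mir-192 was lower in NCs in each set. No label names these sets. In depth, ESC library B (118348 recovered reads) lay nearer to C (102534) than to A (221419). In the deeper libraries its mean was 2735 normalized counts in ESCs and 2341 in NCs, a ratio of 0.856. The limma-voom fit of these libraries alone gave a log2 fold change of -0.23 (95% interval from -0.47 to 0.01, adjusted p-value 0.112). In the C libraries it was 928 in the ESC and 592 in the NC library, a ratio of 0.637 with no replicate. When a term for the library set (A and B against C) was added to limma-voom, the log2 fold change was -0.33 ± 0.13 (SE), with a 95% interval from -0.62 to -0.04 and an unadjusted p-value of 0.0293. After Benjamini-Hochberg adjustment this was 0.0633 and did not pass, while 45.1% of the 317 miRNAs passed in the same fit.

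No change was called for the mir-194 genes. mir-194-1 had 74, 41 and 22 reads in ESCs, or 45.6, 43.7 and 40.2 normalized counts, and 91, 39 and 16 reads in NCs, or 39.4, 39.9 and 27.4 normalized counts. Every NC library was thus under every ESC library. An exact two-sided permutation test gave p = 0.10, the smallest that 3 against 3 libraries allow, and 31.7% of the 309 recovered miRNAs with a mean of at least 10 also did not overlap, 14.2% of the 309 being lower in NCs. The log2 fold change in limma-voom was -0.26 ± 0.26 (SE), with a 95% interval from -0.86 to 0.35 and an adjusted p-value of 0.637. mir-194-2 had 49.9, 55.5 and 43.8 normalized counts in ESCs and 48.1, 52.2 and 39.3 in NCs. These ranges overlapped almost completely. Its log2 fold change in limma-voom was -0.09 ± 0.24 (SE), with a 95% interval from -0.66 to 0.48 (adjusted p-value 0.886). For this pair the intervals reached 1.28-fold and 1.39-fold at their upper ends, which makes them the most tightly bounded members.

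mir-215 was the only tested member with a higher mean in NCs. Its ESC libraries held 12, 13 and 1 reads, or 7.40, 13.9 and 1.83 normalized counts, and its NC libraries held 38, 16 and 2 reads, or 16.5, 16.4 and 3.42 normalized counts. The deeper NC libraries lay above all ESC libraries, but NC library C lay below ESC libraries A and B. The log2 fold change in limma-voom was 0.78 ± 0.75 (SE), with a 95% interval from -0.99 to 2.56 (adjusted p-value 0.621). Its size depended on single libraries, being 0.35 without NC library A, 0.38 without ESC library C, 1.23 without ESC library B and 1.18 without NC library C, and none of these passed. With the library-set term it was 0.75 ± 0.35 (SE), with an interval from -0.03 to 1.53 (adjusted p-value 0.110 in limma-voom). At 1 and 2 reads in the C libraries, the depth could not show a change of this size there.

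The hepatocyte and islet miRNAs were at or near 0. mir-122 had 2 reads in ESC library A and 0 in the other 5 libraries. mir-375 had 0 reads in all 6. Where no read was seen, the limit was set at 3 reads per library, which corresponds to a group mean of up to 3.51 normalized counts in ESCs and 3.17 in NCs, so no fold change is given for either gene. These limits cover counting error only, as do the binomial intervals given for shares of reads, because reads without molecular identifiers are not independent molecules.

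**Figure D1:**
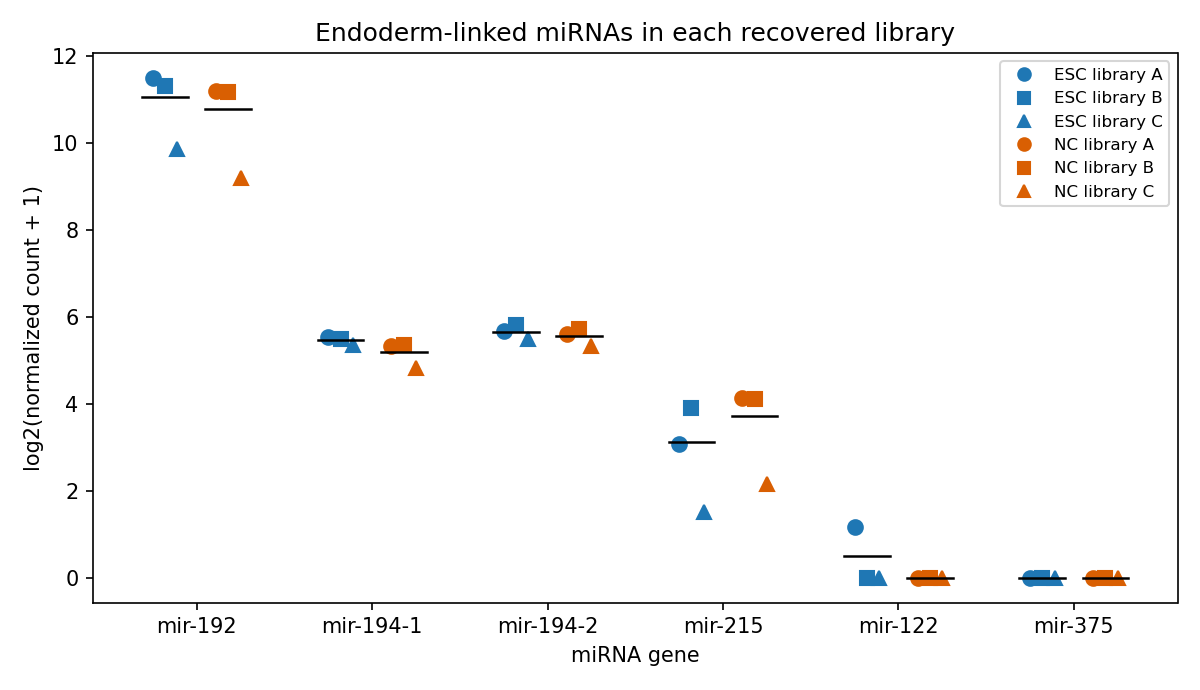
Levels of the 6 members in each recovered library, as log2(normalized count + 1), with ESC libraries in blue and NC libraries in orange and the authors' group mean as a black line. mir-192 stands far above the rest, library C (triangles) is low for mir-192 and mir-215 in both groups, and mir-375 is at 0 throughout.

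In all, 0 of the 4 members tested passed an adjusted p-value of 0.05, and 0 had an unadjusted p-value under 0.05 in the fit without covariate, whereas 15.8% of all 317 tested miRNAs passed (10.1% higher and 5.68% lower in NCs). The median log2 fold change of the 4 was -0.17, against -0.06 for all miRNAs tested. The value was negative for 3 of the 4 and positive for mir-215. mir-122 and mir-375 did not reach the filter of at least 10 reads in 3 or more libraries.

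**Figure D2:**
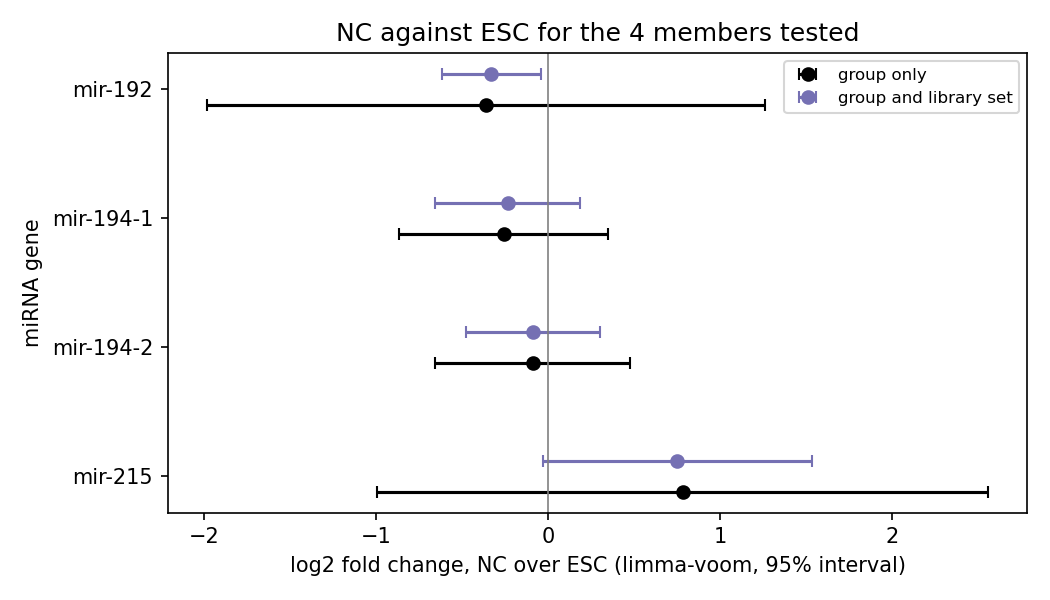
Log2 fold change (NC over ESC) with 95% intervals from limma-voom for the 4 tested members, with group alone (black) and with the library-set term added (purple). All intervals with group alone include 0, and with the covariate the interval of mir-192 runs from -0.62 to -0.04.

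The members made up a small share of the summed signal. Together their means came to 2234 normalized counts in ESCs and 1852 in NCs, which was 0.194% and 0.116% of the sum over all miRNAs. mir-192 alone contributed 95.5% and 94.9% of the members' signal. It had rank 38 in ESCs and rank 48 in NCs among the 898 genes, mir-194-2 ranks 217 and 219, mir-194-1 ranks 224 and 242, and mir-215 ranks 333 and 324. For reference, the most abundant miRNA of each group was 188-fold above mir-192 in ESCs (mir-182) and 429-fold above it in NCs (mir-10a, a Hox-cluster miRNA). mir-10a, with a mean of 754551 normalized counts in NCs, enters the denominator of every share. Scaling both groups to the same total moved log2 differences by -0.48 (less for low counts, because of the pseudocount), after which the group means, on the log2(normalized count + 1) scale, differed by -0.75 for mir-192 (-0.28 before), -0.74 for mir-194-1 (-0.27 before) and -0.56 for mir-194-2 (-0.09 before). The difference of mir-215 shrank from 0.59 to 0.16 and stayed positive.

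Ratios of reads within a library need no size factor and were used to ask whether partners moved together. mir-192 had 58.2, 46.3 and 21.2 reads per read of its cluster neighbour mir-194-2 in ESC libraries A, B and C, and 49.2, 44.3 and 15.0 in the NC libraries. The ratios overlapped between the groups (exact two-sided permutation p = 0.60), and the C libraries had the lowest ratio in both. On chromosome 1, mir-215 had 0.162, 0.317 and 0.0455 reads per mir-194-1 read in ESCs and 0.418, 0.410 and 0.125 in NCs, which also overlapped (exact permutation p = 0.40).

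The shares of the miRNAs of the same seed did not overlap between the groups, but rested on few mir-215 reads. mir-215 contributed 0.254%, 0.538% and 0.196% of the reads of mir-192 plus mir-215 in the ESC libraries. In the NC libraries it contributed 0.690%, 0.704% and 0.575%. Every NC library was above every ESC library. In levels, 31.7% of the 309 recovered miRNAs with a mean of at least 10 also did not overlap, and no such share was computed for ratios. The exact two-sided permutation p was 0.10, the smallest possible here, and 0.25 after Benjamini-Hochberg adjustment over the 5 ratios and shares examined, so the shift did not pass a test. The exact (Clopper-Pearson) 95% intervals were 0.131% to 0.443% in ESC library A and 0.489% to 0.946% in NC library A. In library B they overlapped (0.287% to 0.918% and 0.403% to 1.14%), and in library C the share rested on 1 of 509 and 2 of 348 reads (0.00497% to 1.09% and 0.0697% to 2.06%). The seed itself remained almost entirely that of mir-192 in both groups.

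**Figure D3:**
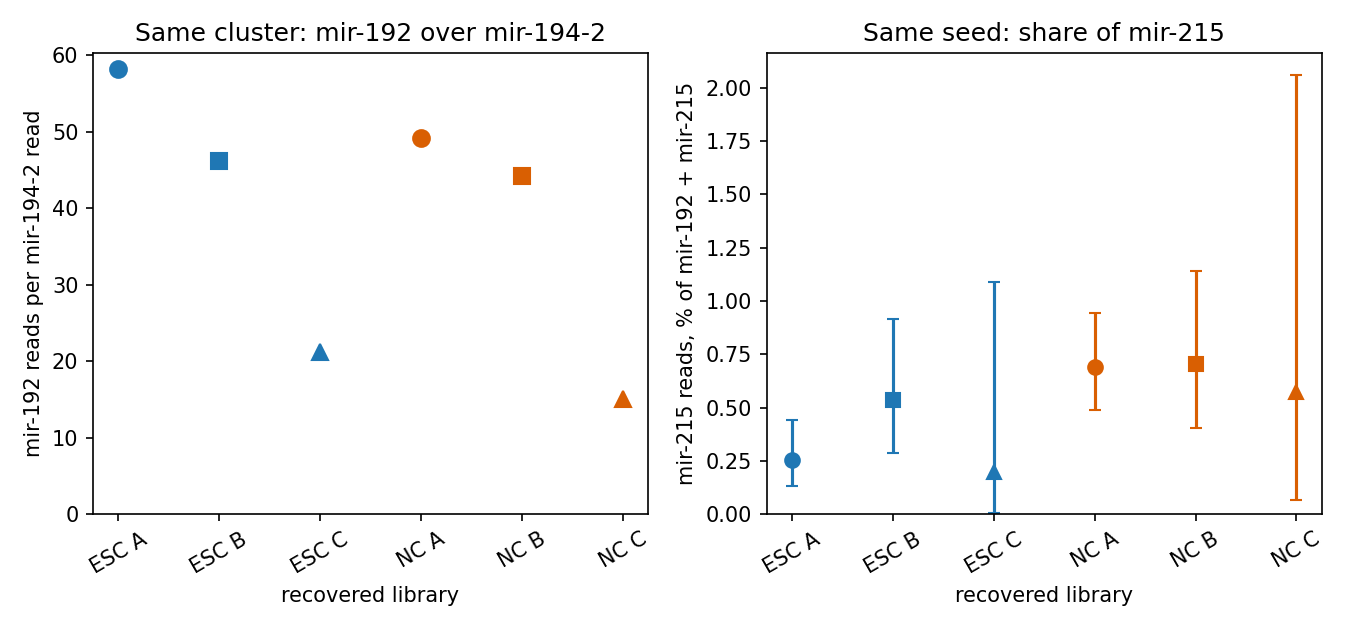
Left, mir-192 reads per mir-194-2 read in each library. Right, mir-215 as a percentage of mir-192 plus mir-215 reads, with exact 95% binomial intervals. The ratio on the left is lowest in library C of each group, and the shares on the right are 0.196% to 0.538% in ESCs and 0.575% to 0.704% in NCs.

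The copies of mir-194 received similar but not equal counts. mir-194-1 held 47.7%, 44.1% and 47.8% of the reads of both genes in the ESC libraries and 45.0%, 43.3% and 41.0% in the NC libraries, and these overlapped between groups (exact permutation p = 0.20). In the group means the lower copy stood at 86.8% of the higher in ESCs and 76.4% in NCs. Among 24 pairs of gene copies with a shared mature sequence and a mean of at least 10, the median was 98.4% in ESCs and 98.2% in NCs, and 14 pairs were within 5% of each other in both groups. The counting of reads that fit several genes was not stated, so the mir-194 values are uncertain as levels of either gene, and reads of miR-194-5p may have been counted for both.

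Library C moved with the members to unequal degrees. Its log2 deviation from the mean of A and B, computed with a pseudocount of 0.5 normalized counts, was -1.56 in ESCs and -1.98 in NCs for mir-192, at the percentiles 9.66 and 7.94 of the 233 miRNAs. For mir-194-1 it was -0.15 and -0.53, and for mir-194-2 it was -0.26 and -0.35, all between the percentiles 32.8 and 47.0. mir-215, which was under the mean of 20 used for this comparison, deviated by -2.26 and -2.11. Across the 233 miRNAs the deviations in ESCs and NCs were correlated (Pearson's r = 0.804, Spearman's rho = 0.885, given as a description since miRNAs of the same libraries are not independent). The labels named no batch, and the part of this deviation in the members' values was not tested beyond the covariate fit.

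**Figure D4:**
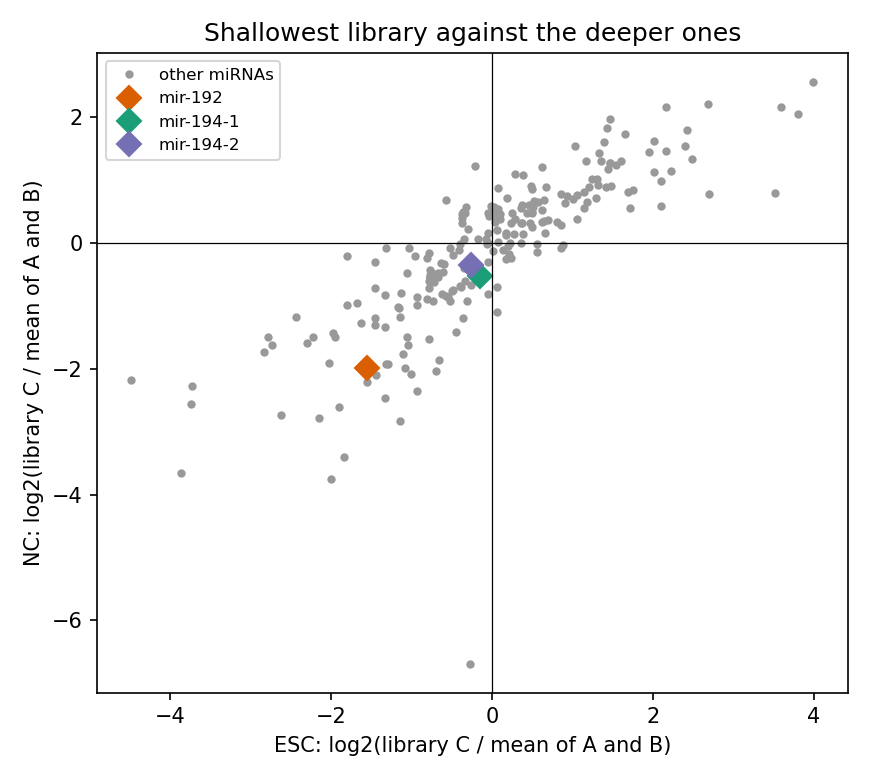
Log2 deviation of library C from the mean of libraries A and B (pseudocount 0.5), in ESCs (x axis) and NCs (y axis), for the 233 miRNAs whose mean reached 20 in both groups. mir-192 (orange diamond) lies at -1.56 and -1.98, and the mir-194 genes lie near the middle of the cloud.

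Over the 6 libraries, the 3 of 230 other miRNAs most like mir-192 in log2 level were mir-374b (Pearson's r = 0.991), mir-127 (0.990) and mir-450b (0.990). They shared the drop in library C and had no adjusted p-value under 0.05 in limma-voom without covariate. With the library-set term mir-127 passed as lower in NCs (adjusted p-value 0.0329 in limma-voom), as did 21.5% of all 317 miRNAs. mir-374b, for example, had 255, 223 and 108 normalized counts in ESCs and 217, 216 and 95.8 in NCs. mir-194-2, mir-194-1 and mir-215 followed mir-192 less closely (r = 0.914, 0.838 and 0.809). These values are descriptive, since the candidates were ranked on the same libraries.

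Other miRNAs of endodermal organs were compared in the same fit. Of 5 liver-enriched miRNAs in the table, all were detected and 2 were tested, and none was called. mir-148a, abundant in liver and pancreas, had a mean of 1102 in ESCs and 1066 in NCs (log2 fold change -0.14 ± 0.40 SE, adjusted p-value 0.893 in limma-voom). mir-101a had 35.8 and 19.0 (log2 fold change -1.02, adjusted p-value 0.576 in limma-voom). With the library-set term mir-101a passed as lower in NCs (adjusted p-value 0.0186 in limma-voom), as did 21.5% of all 317 miRNAs. mir-802, a miRNA of liver and pancreas, had 0 reads in ESCs and 1 read in NCs. mir-483, which lies within the gene for insulin-like growth factor 2, was too low to be tested and pointed the other way, with 2 reads in ESCs and 14 in NCs. Its means were 1.22 and 5.33 normalized counts, and the ratio of pooled reads per size factor was 5.62 (exact 95% counting interval 1.29 to 51.0).

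The pancreas-linked list was divided. mir-216a, mir-216b and mir-217, neighbours on a chromosome that are enriched in pancreatic acinar tissue, were at 0 to 3 reads over all ESC libraries and rose in NCs to means of 22.6, 85.6 and 118 normalized counts. mir-216a, without a read in ESCs, was at least 6.44-fold higher against a floor of 3 reads per ESC library. For mir-216b and mir-217, with 2 and 3 ESC reads, the ratios of pooled reads per size factor were 113 (exact 95% counting interval 31.1 to 939.7) and 108 (36.7 to 526.7). The adjusted p-values in limma-voom were 0.000779, 0.00223 and 0.000520. The mir-7a copies, which are islet and neuroendocrine miRNAs, were not called (log2 fold changes -0.39 and -0.34, adjusted p-values 0.888 and 0.893 in limma-voom). They passed as lower, at -0.64 and -0.62, once the library-set term was added, as did 21.5% of all 317 miRNAs. Thus 3 of the 5 tested pancreas-linked miRNAs rose, against 10.1% of all 317 tested miRNAs, while mir-375 had no read in any library. The 5 hold neighbours on a chromosome and the mir-7a copies, so they are not separate observations. The rise of the mir-216 and mir-217 genes was known from earlier results on these libraries and is not independent evidence of a direction for the list.

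Among 5 miRNAs of epithelia, 3 were tested and 0 were called. mir-200a and mir-141, repressors of mesenchymal transition, had log2 fold changes of -0.98 ± 0.49 and -1.27 ± 0.57 (SE, adjusted p-values 0.268 and 0.215 in limma-voom). Both passed as lower with the library-set term (adjusted p-values 0.00647 and 0.00342 in limma-voom), as did 21.5% of all 317 miRNAs.

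Lists of other lineages set the scale for these values. Of 7 tested pluripotency miRNAs (mir-290a, mir-291b, mir-294, mir-295, mir-302a, mir-302c and mir-302d), all 7 fell, with a median log2 fold change of -2.24. Among all 317 tested miRNAs in the same fit, 5.68% were called lower and 10.1% higher. Of 11 tested neural miRNAs, 3 rose, namely mir-138-1, mir-138-2 and mir-219a-2 (fitted log2 fold changes 2.57, 2.56 and 7.22), and the median was 1.25. mir-219a-2 had 2 reads in ESCs, a pooled ratio of 389.5 (107.5 to 3221), and it too passed the filter only through the NC libraries. mir-219a-1, a copy with a shared mature sequence, had means of 10.7 in ESCs and 21.3 in NCs. It was not called (log2 fold change 1.25, adjusted p-value 0.326 in limma-voom), so the size of the rise differed between the copies. With the library-set term 9 of the 11 passed, all higher in NCs, against 23.7% of all 317 miRNAs in that direction. The mir-9, mir-138 and mir-218 genes are copies with nearly equal values, so the counts of 3 and 9 hold the same signal more than once. However, mir-124, the miRNA most typical of neurons, had means of only 5.19 to 6.02 normalized counts per copy in NCs, and mir-137 was at 0. The mir-124 means were higher than the 2.09 to 2.70 in ESCs, but its reads were too few to be tested. Of 11 muscle miRNAs, 7 were at 0 in both groups, including every copy of mir-1a and mir-133, and mir-145a and mir-499 were not called (adjusted p-values 0.100 and 0.485 in limma-voom). mir-145a passed as lower with the library-set term (0.00221) and with scaling to the recovered totals (0.0444). Of 5 blood miRNAs none was called, mir-150 and mir-142 having log2 fold changes of -1.94 and -1.89 (adjusted p-values 0.342 and 0.350 in limma-voom). All 3 tested ones passed as lower with the library-set term, as did 21.5% of all 317.

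**Figure D5:**
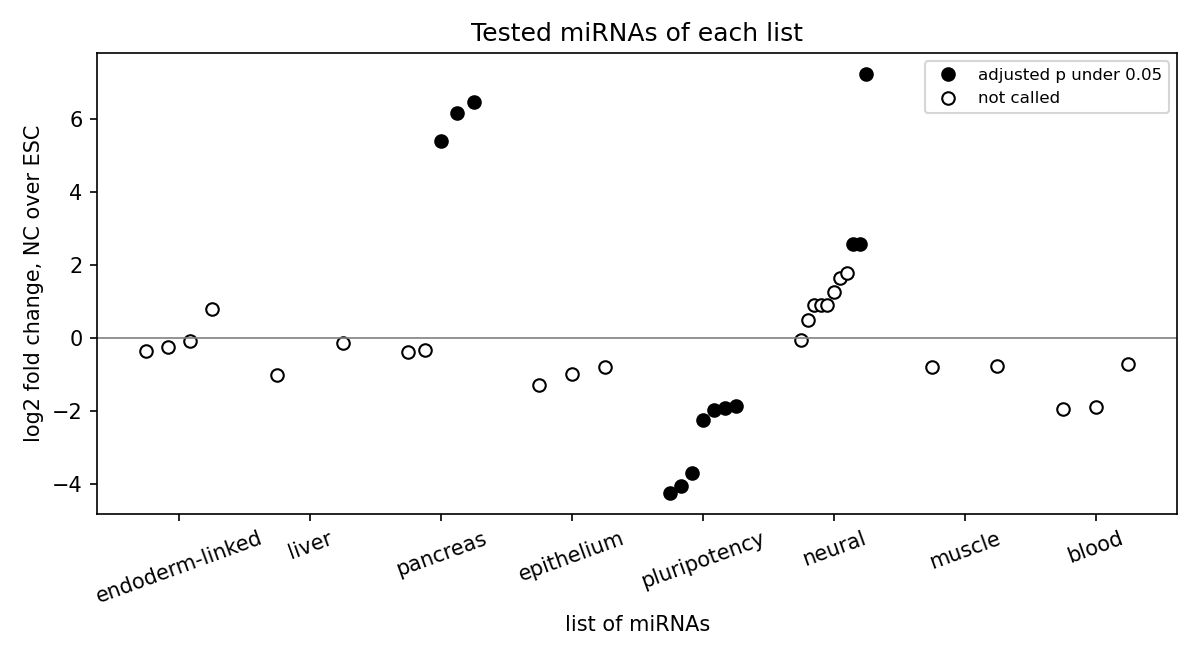
Log2 fold change (NC over ESC, limma-voom) of each tested miRNA by list, filled where the adjusted p-value was under 0.05. The 4 endoderm-linked members lie between -0.36 and 0.78 and are open, whereas all 7 pluripotency miRNAs are filled below 0 and 3 pancreas-linked and 3 neural ones are filled above it.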

How the data were processed

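Small RNA of 3 ESC and 3 NC samples was sequenced. Per the file headers and the submitters' processing notes, which name DESeq and mm10, the authors deposited 1 table whose signal columns hold, for each group, the mean over libraries of reads scaled by size factors (normalized counts). Its fold ratio, log2 fold change, p-value and adjusted p-value columns are the authors' own comparison as deposited, and were not used. Adapter removal, alignment, miRNA annotation and counting are not given in the sources used here.

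Such a mean adds up whole numbers of reads, each library's read having its own fixed worth. These worths were found from low values and fixed by the ratio to the geometric mean of 1 miRNA, which each size factor equalled within 2.33e-13, and the whole reads behind each mean were then searched for. Reads were recovered in ESCs for 529 of 549 detected miRNAs, and in NCs for 582 of 602. In simulated data 498 of 517 and 546 of 562 means were resolved, all of them rightly.

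limma 3.58.1 (R 4.3.3) with voom weights, the recovered size factors and Benjamini-Hochberg adjustment was run on 317 of 611 recovered miRNAs, those reaching 10 reads in 3 libraries (in 2 when a library was left out or the deeper ones alone were used). In a simulation of 611 miRNAs, 200 of them changed 4-fold, 100 changed ones were tested and 100 called, with 6 false calls. It used 1 fixed dispersion and no deviation of library C, so it checks the code and does not give the power in these libraries. Libraries carry no replicate number. Values of single genes and ratios were compared by exact permutation tests. Other steps used scipy 1.17.1, pandas 2.3.3 and numpy 2.4.6 in Python 3.11.15. Of the table's names, 745 of 898 matched a RefSeq miRNA symbol, as did 5 of the 6 members.

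Named miRNAs were the members, the called miRNAs of each list or otherwise its 2 most abundant, the 3 most like mir-192 and the most abundant miRNA of each group. Other miRNAs named were chosen after their values were seen. The members and lists were chosen with earlier results of these data known. Alternatives covered the covariate, the weights, the filter, the scaling, left-out libraries, gene copies and the pseudocount.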

Additional observations from a re-analysis of the deposited data

How the results depend on the processing

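No paired analysis was possible because no label numbers the single libraries behind the group means. No member was called under any of the 12 settings that tested the 4 separately, nor with mir-194 copies averaged and mir-192 and mir-215 summed. Leaving out 1 library in turn gave 0 members called each time, log2 fold changes from -0.90 to 0.29 for mir-192, which reversed to 0.29 without NC library C, and 17 to 52 miRNAs called in all, against 50 with all libraries (17 and 19 without ESC library A or B, 31 and 22 without NC library A or B). The other tested members kept their sign in all 12 settings, from -0.38 to -0.15 for mir-194-1, -0.21 to -0.02 for mir-194-2 and 0.35 to 1.23 for mir-215. Without the filter mir-122 also entered the fit and was not called. With the library set as covariate 143 miRNAs were called, and 162 with the 2 deeper libraries of each group. The list miRNAs called went from 13 to 28 and 30 in these settings, and ranged from 10 to 15 when 1 library was left out. Scaling to the recovered totals changed the split of calls from 32 higher and 18 lower to 27 and 25. At equal totals the means of mir-194-1 and mir-194-2 moved to -0.74 and -0.56 by the shift itself. The cause of the other changes was not tested. Depth limits mir-215, mir-122 and mir-375 most.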
